A study of Mus musculus with 9 samples.

Results

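Spleen RNA of mice with Graves' disease was compared with that of mice without it, both kept on a low selenium supply. The low Se GD and low Se non-GD groups, 3 Agilent arrays each, are 6 of the 9 arrays of the study, and their arrays are called GD and non-GD replicates 1 to 3 below. All arrays of these groups carry total RNA from the spleen of female BALB/c mice, hybridised by a 1-colour protocol. The 3 arrays outside the comparison come from diseased mice with a normal selenium supply, and mice without disease on a normal supply are not part of the data used. The sources used here do not give how the disease was brought about, how old the mice were or what the diets held. The labels also do not say whether the arrays of a group stand for separate mice, so each p-value below rests on variation among these samples alone, which may be technical.

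In Graves' disease, antibodies that stimulate the thyrotropin receptor drive the thyroid to make too much hormone. The spleen is the largest secondary lymphoid organ, where B cell follicles, T cell zones, marginal zone macrophages and the iron-recycling macrophages of the red pulp lie side by side. Type I interferons bind their receptor on nearly every cell and act through a complex of transcription factors that recognises a short promoter element and turns on antiviral genes. Such interferon-stimulated genes are raised in the blood cells of patients with several autoimmune diseases. Selenium is a building block of selenoproteins, some of which limit oxidative damage and activate thyroid hormone.

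A level here is the log2 of a probe's processed signal minus the 75th percentile of the array's non-control spots, so that 0 is the 75th percentile and 1 unit is a factor of 2. Levels of different probes are not compared with each other. A gene was tested where at least 1 of its probes was well above background on all 6 arrays, which left 22476 genes, 15428 of them with a symbol. A difference is the mean of low Se GD minus the mean of low Se non-GD, given with its standard error (SE), and a gene is said to have risen or fallen where limma's p-value, with Benjamini-Hochberg adjustment over every gene tested, was under 0.05.

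By this rule 4591 genes rose (20.4% of those tested) and 4099 fell (18.2%). The groups did not overlap for 12359 genes, 55.0% of those tested, and the median difference of all genes was 0.06. Most rises were small. Of the genes that rose, 4070 did so by less than 1 on the log2 scale, 491 by 1 to 2 and 30 by more than 2. The falls had a longer tail, with 2132 under 1, 806 between 1 and 2, and 1161 over 2. All counts of list members below stand against these shares of all genes.

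Several features of the arrays bear on every comparison. GD replicate 1 shared a slide with the 3 non-GD arrays, while GD replicates 2 and 3 were on another slide together with arrays of the normal supply. On the shared slide, non-GD replicates 2, 3 and 1 were at positions 1, 2 and 3, and GD replicate 1 was at position 4. GD replicates 2 and 3 were at positions 1 and 2 of the other slide. Non-GD replicate 3 lay between replicates 1 and 2 of its group for 74.8% of genes, and GD replicate 2 lay between replicates 1 and 3 for 66.5%. Where the outer 2 arrays differed at least 2-fold, the shares were 97.6% and 95.0%, a choice of genes that itself raises them. Without these 2 arrays, 36 genes rose (0.16%) and 427 fell (1.9%). The 8 other ways of leaving out 1 array of each group gave 704 to 5759 genes higher and 1420 to 5008 lower, and 2662 to 5759 higher and 2706 to 5008 lower where both in-between arrays stayed in. Within the shared slide, which sets GD replicate 1 alone against the 3 non-GD arrays and takes its spread from theirs, 1195 genes rose (5.32%) and 997 fell (4.44%). A fit with the slide as a block, in which that same contrast sets the differences, gave 2984 rises and 2718 falls. All 5 markers of B cells, all 5 of T cells and 5 of 6 of red pulp macrophages were above background on all 6 arrays, as were 22476 of the 32451 genes on the array and 8 of 10 pancreas markers.

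**Figure D1:**
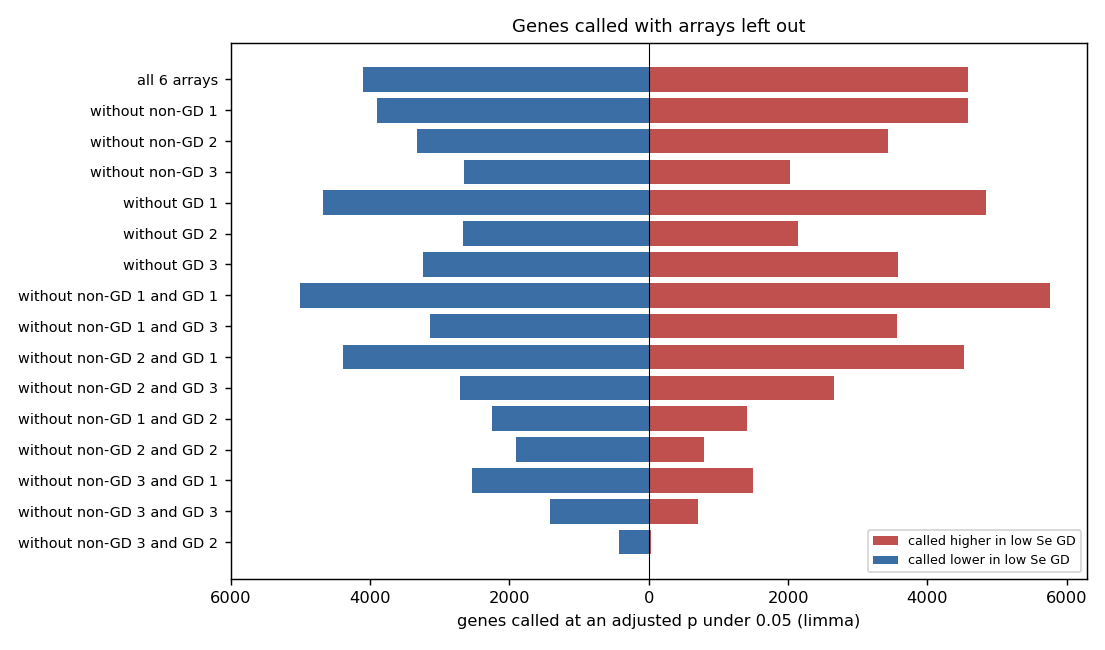
Number of genes called higher (red, to the right) and lower (blue, to the left) in low Se GD by limma at an adjusted p under 0.05, for all 6 arrays and with 1 or 2 arrays left out. The bars shrink most when non-GD replicate 3 and GD replicate 2, the in-between arrays, are both left out, from 4591 higher and 4099 lower to 36 and 427.

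Genes induced by interferon rose widely in low Se GD. Of 33 interferon-stimulated effectors tested, 23 rose and 2 fell, and 19 of the rises were also called in each of the 6 fits that left out 1 array. Their median difference was 0.84, against 0.06 for all genes. Without both in-between arrays 8 members rose and 1 fell, with a median of 0.82, and within the shared slide 15 rose and 2 fell, with a median of 0.81. The levels of 28 members did not overlap between the groups.

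Ifit1, an antiviral protein that binds foreign RNA at its end, had levels of -0.77, -1.88 and -1.13 on the 3 non-GD arrays and of 1.65, 1.8 and 1.85 on the GD arrays. The lowest diseased array was thus well above the highest array without disease, and the difference of 3.03 (SE 0.28, adjusted p = 0.00108) is 8.18-fold. Ifit3, a partner of Ifit1, stood at -0.14, -0.85 and -0.47 against 2.19, 1.93 and 1.61 (difference 2.40, SE 0.22, adjusted p = 0.00114). The synthetase Oas2, which makes the messenger that activates RNA decay by RNase L, went from 0.54, 0.05 and 0.33 to 3.09, 2.87 and 2.65 (difference 2.56, SE 0.17, adjusted p = 0.000285). Among these 3 genes Oas2 kept the smallest p without both in-between arrays, an adjusted p of 0.019, against 0.039 for Ifit1 and 0.048 for Ifit3.

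Relatives of the synthetases rose as well. Oasl2 had levels of -0.56, -1.55 and -0.94 without disease and 1.22, 1.32 and 1.37 with it (difference 2.32, SE 0.24, adjusted p = 0.00175). Oasl1, which restrains translation of the interferon regulator Irf7, moved less but with very little spread, from 0.86, 0.81 and 0.80 to 2.12, 2.08 and 1.99 (difference 1.24, SE 0.07, adjusted p = 0.00016). Oas3 rose by 1.27 (adjusted p = 0.0364), with the lowest reading, -3.13, on non-GD replicate 2, and lost its call without any 1 of the diseased arrays or without non-GD replicate 3 (adjusted p up to 0.104), or with the slide as a block (0.202).

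Rtp4, a receptor chaperone induced by interferon, read 2.27 on all 3 diseased arrays against 0.59, -0.08 and 0.24 (difference 2.02, SE 0.17, adjusted p = 0.000772). Ifi44l rose from -2.55, -3.08 and -2.66 to -0.89, -0.88 and -0.95, a difference of 1.86 (SE 0.14, adjusted p = 0.000612) that was 1.15 under normexp, another background correction. Ifi27l2a, a mitochondrial protein of the interferon response, stood at 4.83, 4.75 and 4.74 without disease and at 6.28, 6.07 and 6.03 with it (difference 1.35, SE 0.09, adjusted p = 0.000327). The 3 diseased arrays lay closer together than the 3 without disease for Rtp4 and Ifi44l, but not for Ifi27l2a. Trim30a, a regulator of innate signalling, differed by 1.30 (SE 0.08, adjusted p = 0.00023). Smaller rises were those of Xaf1 (1.13), the ubiquitin ligase Dtx3l (1.13, with probes of unlike direction and -0.35 as the mean of its probes), its partner Parp9 (0.80), Parp14 (0.72), the immunity GTPase Irgm1 (0.84) and the membrane protein Ifitm3 (0.64), which blocks virus entry.

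Isg15, the ubiquitin-like modifier of the response, ranged widely among arrays without disease, at 4.13, 2.88 and 3.67, against 5.07, 5.03 and 4.95 (difference 1.46, SE 0.30, adjusted p = 0.0127). Its call was lost with the slide as a block (adjusted p = 0.0783), within the shared slide and without both in-between arrays. Non-GD replicate 2 was the lowest array for Isg15, Ifit1, Ifit3, Oas2, Oasl2 and Rtp4. Rsad2, an enzyme that makes a chain-terminating nucleotide, did not pass, at 2.43, 0.48 and 1.73 against 2.86, 2.96 and 3.01 (difference 1.40, SE 0.47, adjusted p = 0.058). Nor did the chemokine Cxcl10 (1.05, SE 0.34, adjusted p = 0.0532) or Isg20 (0.75, adjusted p = 0.221). Iigp1, Gbp2 and Gbp5, GTPases that respond most to interferon gamma, had differences of -0.04, 0.18 and 0.31 and were not called.

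**Figure D2:**
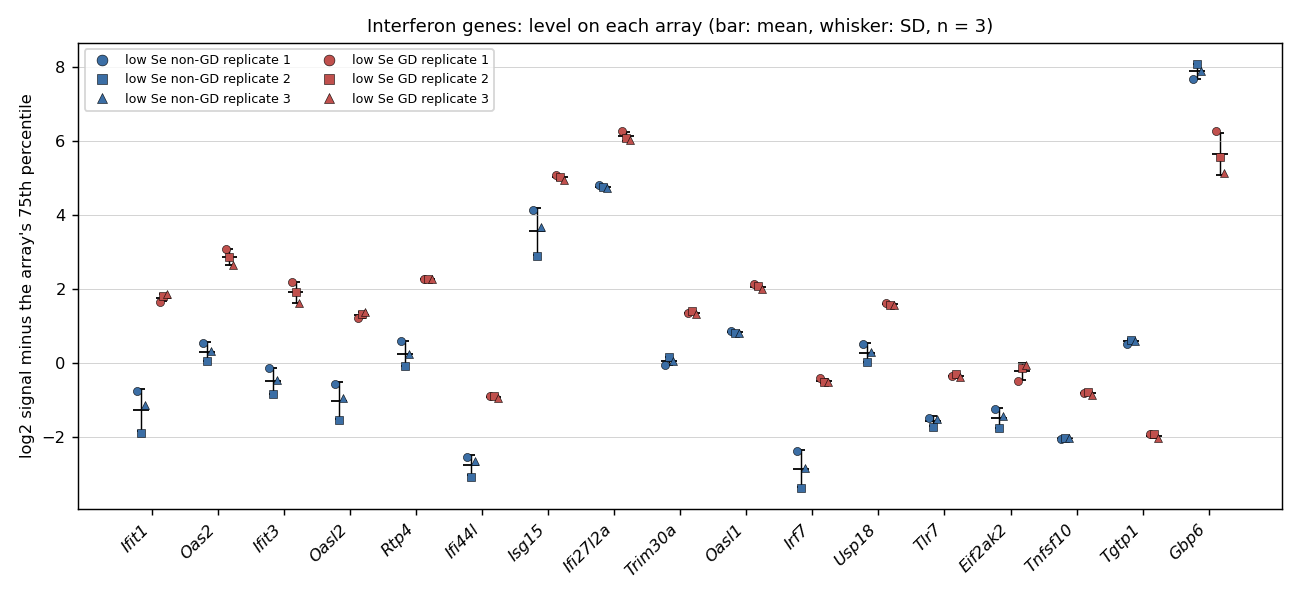
Levels of 17 interferon-related genes on each array (vertical axis, log2 scale as defined above), low Se non-GD in blue and low Se GD in red, with the symbol shape giving the replicate, bars the mean and whiskers the SD of n = 3. For 15 genes all 3 diseased arrays lie above all 3 without disease, as for Ifit1 with a difference of 3.03, and for Tgtp1 and Gbp6 they lie below. Genes that were not called, such as Rsad2 and Cxcl10, are not shown.

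The promoters of these genes were searched for the interferon-stimulated response element, taken as GAAANNGAAA on either strand within the 300 bases from 250 before to 50 after each annotated start (RefSeq, GRCm38.p6). Of the 33 effectors, 26 matched a promoter in that table by symbol, and 17 of the 26 (65.4%) held the element. In the same window it was found in 3.44% of all 32851 promoters, in 3.90% of the 12298 tested genes with a promoter, in 4.90% of the 2897 such genes that rose and in 9.18% of the 305 that rose more than 2-fold. Among the effectors that rose, 11 of 18 (61.1%) held it. For 4 nucleic acid sensors of 15 and 3 signalling genes of 17 the element was also found. A match is a description of the sequence and does not show that a factor binds there. The 180 bases before the start are shown for 5 effectors that rose and 1 that fell, each 5′ to 3′ on the gene's strand, with every match in capitals, so that the element and its spacing can be compared.
Ifit1 (chr19:34640709-34640888, + strand): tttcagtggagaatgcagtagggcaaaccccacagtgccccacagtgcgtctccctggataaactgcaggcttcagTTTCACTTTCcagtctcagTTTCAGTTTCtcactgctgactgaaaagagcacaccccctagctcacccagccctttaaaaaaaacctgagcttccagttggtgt
Ifit3 (chr19:34583349-34583528, + strand): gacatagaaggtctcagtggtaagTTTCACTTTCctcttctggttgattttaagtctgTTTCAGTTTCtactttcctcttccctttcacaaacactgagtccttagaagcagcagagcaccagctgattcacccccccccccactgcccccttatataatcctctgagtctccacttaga
Isg15 (chr4:156200819-156200998, - strand): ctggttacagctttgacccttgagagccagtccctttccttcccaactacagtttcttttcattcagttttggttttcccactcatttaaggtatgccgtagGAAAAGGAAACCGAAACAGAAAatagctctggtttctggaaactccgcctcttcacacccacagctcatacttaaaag
Bst2 (chr8:71537473-71537652, - strand): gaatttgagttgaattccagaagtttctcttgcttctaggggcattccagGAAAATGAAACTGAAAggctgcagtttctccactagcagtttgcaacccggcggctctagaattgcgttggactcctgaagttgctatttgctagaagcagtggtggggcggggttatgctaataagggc
Trim30a (chr7:104465194-104465373, - strand): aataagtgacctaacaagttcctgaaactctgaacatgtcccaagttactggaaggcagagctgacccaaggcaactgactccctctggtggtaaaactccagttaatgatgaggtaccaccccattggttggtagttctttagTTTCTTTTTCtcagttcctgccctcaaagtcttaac
Tgtp1 (chr11:48992247-48992426, - strand): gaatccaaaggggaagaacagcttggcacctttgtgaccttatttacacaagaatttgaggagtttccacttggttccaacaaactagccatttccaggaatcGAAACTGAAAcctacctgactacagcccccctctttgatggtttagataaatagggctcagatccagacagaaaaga
In Ifit1 the matches begin 104 and 85 bases before the start, and in Ifit3 156 and 122 bases before. Both genes carry the same pair of letters, TTTCACTTTC followed by TTTCAGTTTC, which is the element read on the other strand. Isg15 held 3 overlapping matches, the first 78 bases before its start, and Bst2, the tetherin that holds budding virus at the cell surface, held 2 overlapping ones from 130 bases before. Bst2 rose from 0.89, 0.84 and 0.82 to 2.01, 1.76 and 1.66 (difference 0.96, SE 0.11, adjusted p = 0.00203). The match of Trim30a was a single one, 36 bases before the start. Tgtp1, which holds a match 77 bases before its start, is 1 of the 2 members that fell.

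Both members that fell encode GTPases of interferon gamma responses. Tgtp1 had levels of 0.52, 0.63 and 0.60 without disease and -1.93, -1.93 and -2.04 with it, a difference of -2.55 (SE 0.07, adjusted p = 2.93e-05) that also passed without both in-between arrays (adjusted p = 0.0053). Gbp6 stood at 7.69, 8.09 and 7.89 against 6.27, 5.56 and 5.13 (difference -2.24, SE 0.29, adjusted p = 0.00292). Its probes differed in direction. In both groups the order of the arrays for Gbp6 and Tgtp1 was that of a control spot described further on.

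Among 21 sensors of foreign or misplaced nucleic acid, 11 rose and 2 fell, with a median difference of 0.48, and 10 of the rises held in each fit that left out 1 array. Tlr7, the endosomal receptor for single-stranded RNA, rose from -1.48, -1.72 and -1.51 to -0.36, -0.31 and -0.39 (difference 1.22, SE 0.09, adjusted p = 0.000501). The RNA-activated kinase Eif2ak2 rose by 1.26 (SE 0.18, adjusted p = 0.00353). Its levels were -1.25, -1.77 and -1.43 against -0.49, -0.14 and -0.05. The cytosolic RNA helicases Dhx58, Ifih1 and Ddx58 rose by 1.04, 1.04 and 0.48, and the nucleic acid binder Zbp1 by 0.81. With the slide as a block Ifih1 was not called (adjusted p = 0.0849).

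The sensors that fell were the inflammasome DNA sensor Aim2 (difference -0.58, SE 0.10, adjusted p = 0.00579) and the kinase Tbk1 (-0.73, SE 0.12, adjusted p = 0.00513). The DNA sensor Cgas (0.16), its adaptor Sting1 (-0.15), and the endosomal receptors Tlr3 (0.31) and Tlr9 (0.17) were not called. None of the 21 was called without both in-between arrays, where the median was 0.46, and 5 rose within the shared slide.

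Of 21 genes that carry the interferon signal, 8 rose and 2 fell, with a median of 0.19. Irf7, the transcription factor that amplifies interferon production, had the largest rise, from -2.37, -3.37 and -2.83 to -0.41, -0.52 and -0.52 (difference 2.37, or 1.57 under normexp, SE 0.24, adjusted p = 0.00161). Usp18, the protease that removes Isg15 and dampens the receptor, rose from 0.52, 0.01 and 0.29 to 1.63, 1.57 and 1.56 (difference 1.31, SE 0.14, adjusted p = 0.0016). Both genes were again tight on the diseased arrays and lowest on non-GD replicate 2. Socs1, an inhibitor of the pathway, rose by 0.79 and the receptor chain Ifnar2 by 0.59. Irf9 (0.24) and Irf1 (0.11) were not called.

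Ifnar1, the other chain of the type I receptor, had the largest fall of the list, from 2.62, 4.02 and 3.45 to 0.78, 0.33 and -0.13 (difference -3.04, SE 0.40, adjusted p = 0.00292). Its probes differed in direction, and its array order was that of the same control spot in both groups. Without both in-between arrays 0 of the 21 signalling genes were called, and the adjusted p was 0.056 for Irf7 and 0.06 for Ifnar1.

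Antigen presentation did not move as a group. Among 20 genes of class I presentation 5 rose and 3 fell, with a median of -0.10 that became 0.07 under quantile normalization. Calr, the chaperone calreticulin of the peptide-loading complex, rose from 2.44, 2.18 and 2.31 to 3.48, 3.49 and 3.53 (difference 1.19, SE 0.09, adjusted p = 0.000491), and the peptide trimmer Erap1 by 0.69 (SE 0.07, adjusted p = 0.00188), or 0.42 under normexp. The peptide editor Tapbpl fell by 0.55 (SE 0.07, adjusted p = 0.00247). The transporter chains Tap1 (-0.02) and Tap2 (-0.24) and the light chain B2m (0.18) were not called. Of 14 class II genes 2 rose and 2 fell, with a median of 0.04, and 0 of the 4 were called in every fit that left out 1 array. H2-Ab1, a class II chain, differed by -0.06 (SE 0.07).

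Genes of macrophages moved in both directions, and most red pulp markers rose. Among the 5 red pulp macrophage markers tested, 4 rose and 0 fell, and the summed level of the list was 5.22 to 5.69 without disease and 6.15 to 6.42 with it. With the slide as a block 2 rose, with a median of 0.68 in place of 1.02, and 0 rose within the shared slide or without both in-between arrays. Whether more cells of a type were present or each held more RNA cannot be told apart in whole spleen RNA. Csf1r, the receptor for macrophage growth factor, stood at 4.32, 4.13 and 4.21 against 4.90, 4.93 and 4.92 (difference 0.70, SE 0.08, adjusted p = 0.00197). Vcam1, an adhesion molecule of these cells, rose from 3.07, 2.60 and 2.80 to 3.96, 3.82 and 3.77 (difference 1.02, SE 0.14, adjusted p = 0.00297). Adgre1, which encodes F4/80, rose by 1.37 (SE 0.35, adjusted p = 0.0245), and the iron exporter Slc40a1 by 1.06 (SE 0.28, adjusted p = 0.0277). Neither call held without non-GD replicate 2 or 3 or GD replicate 2 or 3, or with the slide as a block, where the differences were 0.79 and 0.68 (adjusted p = 0.208 and 0.229). Spic, the factor that sets red pulp identity, differed by 0.14 (SE 0.16, adjusted p = 0.523).

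Among genes known from macrophages of the marginal zone, Siglec1 and Cd209b rose and Marco did not. Siglec1, a sialic acid receptor of marginal metallophilic macrophages that interferon is known to induce, went from -0.15, -0.57 and -0.33 to 1.07, 1.05 and 1.05 (difference 1.41, SE 0.12, adjusted p = 0.000738). Cd209b, the lectin of marginal zone macrophages, went from -3.35, -3.12 and -3.62 to -2.34, -2.34 and -2.39 (difference 1.0, or 0.40 under normexp, SE 0.13, adjusted p = 0.00303). Marco, a scavenger receptor of the same cells, differed by 0.03 and was not called. The mannose receptor Mrc1 was among the 12 largest rises by the naming rule, from -0.13, -1.64 and -0.65 to 1.04, 1.24 and 1.31 (difference 2.0, SE 0.37, adjusted p = 0.00855). Mrc1 was not called with the slide as a block (adjusted p = 0.077), within the shared slide or without both in-between arrays. Non-GD replicate 2 was the lowest array here too.

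Complement genes moved in both directions. Of 21 tested, 9 rose and 4 fell, with a median of 0.14, and 5 of the rises and 3 of the falls held in each fit that left out 1 array. The 3 chains of C1q, which recognise bound antibody, rose together. C1qa moved from 0.79, 0.35 and 0.58 to 2.01, 2.04 and 2.06, C1qc from 2.42, 1.97 and 2.22 to 3.40, 3.53 and 3.58, and C1qb from -0.58, -1.02 and -0.82 to 0.12, 0.22 and 0.31, with differences of 1.46, 1.30 and 1.02. The adjusted p values were 0.000753, 0.00153 and 0.00277. Serping1, the C1 inhibitor, rose by 0.69, and properdin (Cfp), which stabilises the alternative pathway, by 0.54 (SE 0.06). The protease C1s1 fell by 0.76 (SE 0.08, adjusted p = 0.0016) and the lytic component Hc by 1.30 (SE 0.26, adjusted p = 0.011), the latter not called with the slide as a block (adjusted p = 0.098). The central component C3 differed by -0.24 and was not called. Itgam, a chain of complement receptor 3, fell by 1.29, or 0.80 with the slide as a block, with probes of unlike direction.

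Receptors for antibody rose in part. Of 11 tested, 5 rose and 1 fell, with a median of 0.44. Fcgr4, an activating IgG receptor of monocytes and macrophages, stood at -1.51, -2.56 and -2.03 against -0.62, -0.70 and -0.77 (difference 1.34, SE 0.26, adjusted p = 0.00962, or 0.0607 with the slide as a block). The neonatal receptor Fcgrt, which protects IgG and albumin from breakdown, stood at 0.09, -0.48 and -0.17 against 1.11, 0.91 and 0.65 (difference 1.08, SE 0.18, adjusted p = 0.00645). These were the 2 of the 5 rises that held in each fit that left out 1 array. Without both in-between arrays 0 of the 11 were called.

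Lysosomal and lipid-handling genes, many of them abundant in macrophages, rose in part. Of 37 lysosome genes 13 rose and 3 fell, with a median of 0.19, and 7 of the rises held in each fit that left out 1 array. Ctsb, the protease cathepsin B, stood at 5.07, 5.05 and 5.06 against 6.07, 6.0 and 6.12 (difference 1.0, SE 0.07, adjusted p = 0.000352). The membrane protein Lamp2 stood at 0.47, 0.41 and 0.41 against 1.38, 1.60 and 1.72 (difference 1.14, SE 0.10, adjusted p = 0.00104). The protease Lgmn rose by 0.76 and the proteases Ctsz and Ctsk fell by 0.42 and 0.45. Among 23 targets of the sterol-sensing LXR receptors and related lipid genes, 9 rose and 2 fell, with a median of 0.35. The scavenger receptor Cd36 rose from -0.31, -0.99 and -0.66 to 1.08, 0.96 and 0.77 (difference 1.59, SE 0.18, adjusted p = 0.00229), the lipid droplet protein Plin2 by 0.75 and the cholesterol exporter Abca1 by 0.88. Trem2, a lipid-sensing receptor of macrophages, fell by 0.80 (SE 0.08, adjusted p = 0.00138). Cd5l, a secreted macrophage protein, fell by 1.40 (SE 0.31, adjusted p = 0.0161), a call not held without non-GD replicate 3 or GD replicate 2 or with the slide as a block (adjusted p = 0.061).

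Chemokines and their receptors moved in both directions, 9 of 32 higher and 5 lower, with a median of 0.15 that became -0.06 under normexp background correction. The myeloid chemokine Ccl6 stood at -1.42, -2.05 and -1.73 against 0.25, -0.13 and -0.65 (difference 1.56, SE 0.26, adjusted p = 0.00643). Cxcl12, which retains haematopoietic cells, rose by 1.26 (SE 0.23, adjusted p = 0.00871), its scavenging receptor Ackr3 by 0.82 and the eosinophil chemokine Ccl24 by 0.96. Under normexp Ackr3 differed by 0.49 and Ccl24 by 0.52, and Ccl24 was not called with the slide as a block (adjusted p = 0.0674). Cxcl13, which draws B cells into follicles, fell from 3.26, 3.89 and 3.64 to 2.59, 2.75 and 2.82 (difference -0.88, SE 0.17, adjusted p = 0.0101). The neutrophil chemokine Cxcl1 fell by 3.30 (SE 0.29, adjusted p = 0.000932), on arrays in the order of the control spot. It was the 1 member called without both in-between arrays (adjusted p = 0.035).

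Among 28 cytokines 3 rose and 6 fell, a share of falls near that of all genes, with a median of -0.13. Tnfsf10, the death ligand TRAIL, which interferon also induces, rose from -2.07, -2.02 and -2.03 to -0.80, -0.78 and -0.87 (difference 1.22, SE 0.07, adjusted p = 0.000133). It passed as well without both in-between arrays (adjusted p = 0.039). Lta, a lymphotoxin that organises follicles, fell from 0.72, 1.19 and 0.96 to -0.46, 0.01 and 0.22 (difference -1.03, SE 0.21, adjusted p = 0.011). Il21, the cytokine of follicular helper T cells, fell from -3.77, -3.85 and -3.83 to -5.21, -4.63 and -4.82 (difference -1.07, or -0.69 under normexp, SE 0.15, adjusted p = 0.00361). Lif fell by 3.11 (adjusted p = 0.00268), on arrays in the order of the control spot. Ifng (-0.70), Tnf (-0.51) and Il1b (-0.05) were not called. Among 35 cytokine receptors 8 rose and 8 fell.

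B cell genes were the clearest immune group on the lower side. Of 26 genes of B cell receptor signalling, 12 fell and 1 rose, with a median of -0.27, and 4 of the falls held in each fit that left out 1 array. The count of falls was 14 without non-GD replicate 1, 5 without GD replicate 2, 4 without non-GD replicate 3, and 0 without both of the latter. The median was -0.30 without both of them and -0.31 within the shared slide, where 3 genes fell. Normexp background correction and quantile normalization each gave a median of -0.24.

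Fcer2a, the IgE receptor CD23 of follicular B cells, stood at 0.76, 0.94 and 0.82 against -0.10, -0.12 and -0.14 (difference -0.96, SE 0.08, adjusted p = 0.000666). Cd22, which restrains the receptor, stood at 3.71, 3.72 and 3.70 against 3.08, 2.84 and 2.82 (difference -0.79, SE 0.09, adjusted p = 0.00235). The kinase Blk stood at -0.65, -0.82 and -0.78 against -1.41, -1.34 and -1.35 (difference -0.61, SE 0.08, adjusted p = 0.00269). These are modest changes with groups that stand clearly apart. Cr2, complement receptor 2, fell by 0.77 (SE 0.16, adjusted p = 0.0127), a call lost without non-GD replicate 3. The receptor chain Cd79b fell by 0.43 (SE 0.08, adjusted p = 0.0091), a call lost without non-GD replicate 3 or GD replicate 2. Fcmr, the receptor for IgM, rose by 0.30 (adjusted p = 0.0149) and was lost without the same 2 arrays, each left out alone. Neither Cd79b nor Fcmr was called with the slide as a block (adjusted p = 0.0612 and 0.065). The pan-B markers Cd79a (-0.22), Ms4a1 (-0.24) and Pax5 (-0.16) were not called. For 5 of the 12 genes that fell, Fcer2a and Cd79b among them, the arrays of both groups stood in the order of the control spot. That order was seen for 19% of all genes and for 35.7% of all genes that fell. The summed level of the 5 B cell markers was 6.49 to 6.71 without disease and 6.20 to 6.26 with it.

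**Figure D3:**
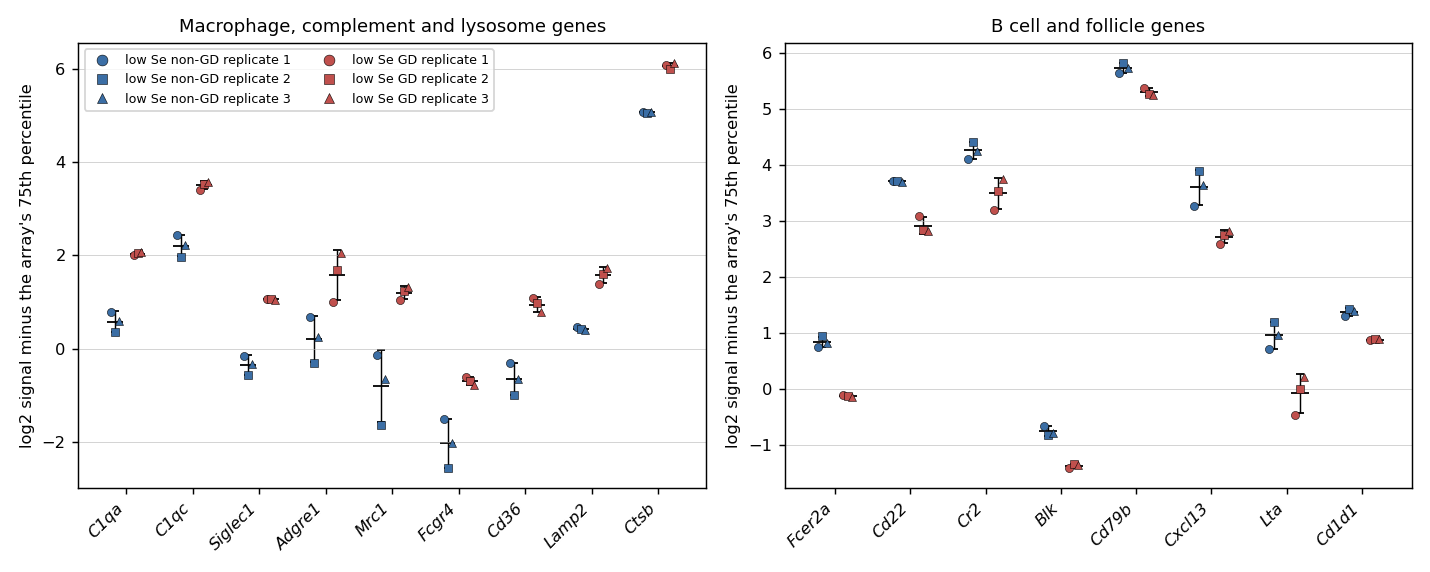
Levels of macrophage, complement and lysosome genes (left) and of B cell and follicle genes (right) on each array (vertical axes, log2 scale as defined above), low Se non-GD in blue and low Se GD in red, symbol shape for the replicate, bars for the mean and whiskers for the SD of n = 3. The genes shown were picked from those that rose (left) and from those that fell (right), so the direction in each panel reflects that choice. C1qa is higher by 1.46 and Fcer2a lower by 0.96. Members of the same lists that moved the other way or were not called, such as Trem2, C1s1 and Spic or Fcmr and Cd79a, are not shown.

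Genes that lay out the follicle and marginal zone gave 5 rises and 8 falls among 31, with a median of -0.14. Besides Siglec1, Vcam1 and Cd209b, the rises were those of the Notch ligand Dll1 (0.61, SE 0.07, adjusted p = 0.00246) and the lymphocyte receptor S1pr4 (0.50, SE 0.07, adjusted p = 0.00384), the latter not called under normexp (0.079, adjusted p = 0.56). Besides Cxcl13 and Lta, the falls included Cd1d1, the lipid-presenting molecule that is abundant on marginal zone B cells, from 1.30, 1.43 and 1.39 to 0.88, 0.89 and 0.89 (difference -0.49, SE 0.07, adjusted p = 0.00373). S1pr3, a sphingosine receptor of those cells, fell by 0.46 (adjusted p = 0.0129), a call lost without non-GD replicate 3 or GD replicate 2. The follicle receptor Cxcr5 (-0.29) and the T zone receptor Ccr7 (-0.13) were not called.

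Few T cell genes were called. Of 33 genes of T cell receptor signalling and costimulation 4 rose and 3 fell, with a median of -0.02 (0.04 under quantile normalization), and of the 5 T cell markers 0 were called over the 6 arrays. The inhibitory receptor Lag3 rose from -3.15, -2.85 and -2.96 to -2.26, -2.28 and -2.24 (difference 0.72, SE 0.10, adjusted p = 0.00294) and the activating receptor Cd226 by 0.70 (SE 0.08, adjusted p = 0.00182). Under normexp neither was called, with differences of 0.15 and 0.24 (adjusted p = 0.231 and 0.0621). The receptor chain Cd247 fell by 1.11 (SE 0.14, adjusted p = 0.00283), and the checkpoint receptor Pdcd1 by 2.42 (SE 0.35, adjusted p = 0.00376) on arrays in the order of the control spot. Among 6 natural killer markers 3 rose and 0 fell, with Gzma, a granule protease, at 1.73, 0.25 and 1.15 against 2.63, 2.80 and 2.92 (difference 1.74, SE 0.36, adjusted p = 0.0127, or 0.102 with the slide as a block).

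Mouse counterparts of genes at human Graves' disease loci numbered 12 among the genes tested, of which 2 rose and 3 fell, with a median of -0.02 that was 0.06 under quantile normalization and -0.16 under normexp. Trib2 rose by 0.77 (SE 0.14, adjusted p = 0.00772). Cd40, the costimulatory receptor of B cells, stood at 1.30, 1.84 and 1.58 against 0.70, 1.03 and 1.21 (difference -0.60, SE 0.19, adjusted p = 0.0471), and Foxp3, the factor of regulatory T cells, fell by 0.26 (adjusted p = 0.039). Both calls were lost without non-GD replicate 2 or 3 or GD replicate 1 or 2, and that of Foxp3 also without GD replicate 3 or with the slide as a block (adjusted p = 0.138), while Cd40 was not called under normexp (adjusted p = 0.0818). Ctla4 differed by 0.04 and was not called. Ptpn22, a phosphatase that damps lymphocyte receptors, stood at 1.97, 2.01 and 1.93 against 3.58, 2.99 and 2.26 and did not pass (difference 0.97, SE 0.32, adjusted p = 0.0536). Tg, the thyroid hormone precursor, had levels of 1.52, 2.91 and 2.32 against -0.15, -0.23 and -0.71 in these spleens (difference -2.61, SE 0.36, adjusted p = 0.0034). Its arrays followed the order of the control spot, and of the other 4 thyroid markers only Pax8 was above background on all 6 arrays.

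Plasma cell and secretory pathway genes rose in part. Of 7 plasma cell markers 3 rose and 1 fell. Xbp1, the transcription factor that builds the secretory apparatus, stood at 1.88, 1.72 and 1.83 against 2.39, 2.58 and 2.67 (difference 0.74, SE 0.10, adjusted p = 0.00308), and Jchain, which joins secreted IgM and IgA, rose by 0.65 (SE 0.13, adjusted p = 0.0108, or 0.0848 with the slide as a block). Among 24 genes of the unfolded protein response 12 rose and 2 fell, with a median of 0.30. The count of rises was 6 without either in-between array and 0 without both. Dnajb9, a chaperone cofactor of the endoplasmic reticulum, rose by 0.95 (SE 0.09, adjusted p = 0.00113), Sdf2l1 by 0.88 (SE 0.08, adjusted p = 0.00126) and the disulphide isomerase Pdia4 by 1.32 (SE 0.20, adjusted p = 0.00428). The master chaperone Hspa5 differed by 0.12 (SE 0.08) and was not called, and the stress factor Ddit3 fell by 0.46, a call lost without non-GD replicate 3.

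Histone genes rose broadly. Of 24 replication-dependent and linker histone genes tested, 15 rose and 0 fell, with a median of 0.59, and 23 differences were above 0. H3c3 stood at 1.13, 0.63 and 0.90 against 1.99, 1.94 and 1.95 (difference 1.07, SE 0.13, adjusted p = 0.00269), and the linker histone H1f2 at 0.63, 0.37 and 0.48 against 1.67, 1.42 and 1.22 (difference 0.94, SE 0.14, adjusted p = 0.00392). The number of rises was 8 without either in-between array, 0 without both and 2 within the shared slide, with medians of 0.62 and 0.53 in the last 2. Near-identical copies of histone genes may share probe signal. Among 25 genes of haemoglobin and haem synthesis 24 differences were above 0, while 1 gene rose and 0 fell. Their median was 0.64, but 0.29 without non-GD replicate 2 and 0.37 within the shared slide. Alas2, the haem enzyme of red cell precursors, read 5.50, 3.70 and 4.88 against 5.09, 5.45 and 5.74, with non-GD replicate 2 well below the others and overlapping groups. Without non-GD replicate 1, 7 of these genes rose.

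Subunits of respiratory complexes II to V showed many small rises, 13 of 38 with 1 fall and a median of 0.21. They ran from 0.25 for Cox8a and Atp5c1 to 0.53 for Cox7a2, which stood at 2.90, 2.67 and 2.82 against 3.23, 3.36 and 3.39 (SE 0.09, adjusted p = 0.00716). None of these 3 subunits was called with the slide as a block (adjusted p = 0.0556 to 0.13). The count was 20 without GD replicate 1, 6 without GD replicate 3 or non-GD replicate 2, 4 without either in-between array and 0 within the shared slide. Uqcrb, a subunit of complex III, fell by 1.87 (SE 0.20, adjusted p = 0.00184), on arrays in the order of the control spot.

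**Figure D4:**
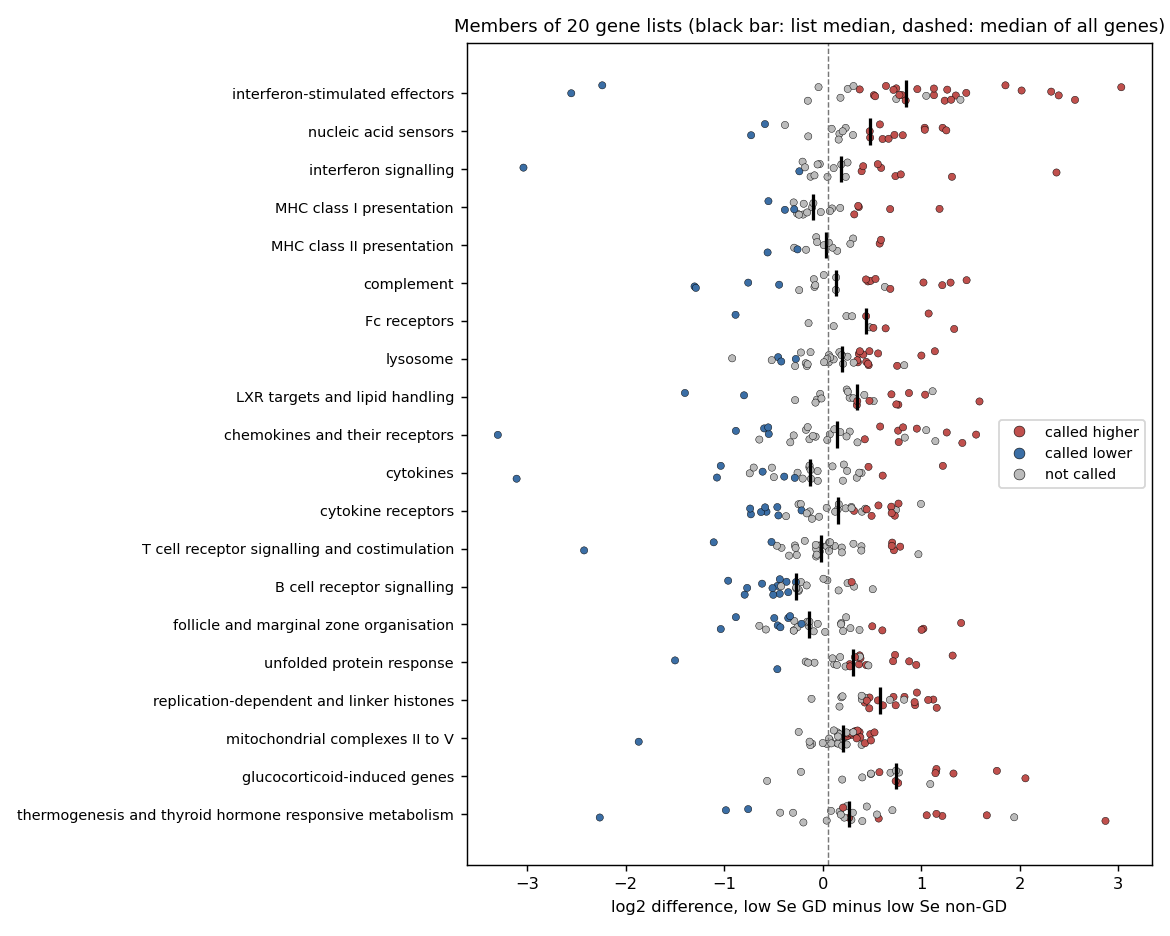
Differences (horizontal axis, log2, low Se GD minus low Se non-GD) of the tested members of 20 gene lists, 1 point per gene, red for genes called higher, blue for genes called lower and grey for the rest. Black bars are list medians and the dashed line is the median of all genes, 0.06; the highest list medians are those of interferon-stimulated effectors (0.84) and glucocorticoid-induced genes (0.75), and the lowest is that of B cell receptor signalling (-0.27).

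Another kind of rise was steady without disease and uneven with it, highest on GD replicate 1 and lowest on replicate 3. Rn28s1, the large ribosomal RNA, read 0.83, 0.45 and 0.56 without disease and 5.59, 4.12 and 3.0 with it (difference 3.62, SE 0.62, adjusted p = 0.00648). Gfra4, a coreceptor for a neurotrophic factor, stood at 1.53, 1.45 and 1.41 against 5.57, 4.55 and 3.31, and Slc4a7, a bicarbonate transporter, at 2.31, 2.31 and 2.30 against 4.95, 4.42 and 3.88. Their differences were 3.02 (SE 0.53, adjusted p = 0.00742) and 2.11 (SE 0.26, adjusted p = 0.00263). Sh3bp5 followed the same order, with a difference of 2.16 (SE 0.45, adjusted p = 0.0128). That order of diseased arrays was seen for 36.9% of all genes tested and for 40.1% of the 521 genes that rose more than 2-fold.

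Of 19 tested genes that glucocorticoids induce, the adrenal steroids that dampen immunity, 89.5% had this order of arrays. Of these, 8 rose and 0 fell, with a median of 0.75, and all 8 had the order. Zbtb16, a strongly steroid-responsive transcription factor, stood at -2.42, -2.38 and -2.37 against 0.71, -0.17 and -1.53 (difference 2.06, SE 0.53, adjusted p = 0.0266). Dusp1, a phosphatase that switches off MAP kinases, stood at -0.88, -1.02 and -1.0 against 0.82, 0.40 and -0.14 (difference 1.33, SE 0.24, adjusted p = 0.00752). Cebpd stood at 1.57, 1.37 and 1.45 against 2.97, 2.63 and 2.22 (difference 1.15, SE 0.19, adjusted p = 0.00632). The steroid receptor's cochaperone Fkbp5 had the same shape, 1.75, 1.66 and 1.68 against 3.68, 2.90 and 1.98, but did not pass (difference 1.15, SE 0.40, adjusted p = 0.0663), nor did Tsc22d3 (1.09, SE 0.51, adjusted p = 0.136).

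The size of this group depended on which diseased array was included. Without GD replicate 3 the number of rises was 14, without GD replicate 1 it was 6 with 2 falls, without non-GD replicate 2 it was 4, without either in-between array it was 3, and without both it was 0. Within the shared slide 12 rose, with a median of 1.28. With the slide as a block the difference of Zbtb16 was 3.10. Its call was lost without any 1 array other than GD replicates 1 and 3. Rn28s1 moved with these genes across the diseased arrays. The slide set GD replicate 1 apart from replicates 2 and 3, which shared a slide and on which Rn28s1 read 4.12 and 3.0. The part of Rn28s1 and of the slide in the result was not tested.

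Genes of thermogenesis and of the thyroid hormone response gave 8 rises and 3 falls among 27, with a median of 0.27. Thrsp, a lipogenic factor named for its response to thyroid hormone, stood at -1.88, -4.16 and -2.62 against 0.83, 0.17 and -1.03 (difference 2.87, SE 0.70, adjusted p = 0.0224). Hr, a corepressor that thyroid hormone induces, stood at -3.57, -3.85 and -3.71 against -1.81, -2.01 and -2.30 (difference 1.67, or 0.71 under normexp, SE 0.15, adjusted p = 0.00092). The receptor Thrb stood at -4.73, -4.67 and -4.63 against -3.23, -3.40 and -3.75 (difference 1.22, SE 0.14, adjusted p = 0.00229), but its difference under normexp was 0.03 (adjusted p = 0.88). For these 3 genes GD replicate 1 was again the highest of the diseased arrays and replicate 3 the lowest. Me1, the malic enzyme, rose by 1.06 (SE 0.14, adjusted p = 0.00305), or 0.70 under normexp. Dio3, the deiodinase that degrades the hormone, fell by 0.98 (SE 0.14, adjusted p = 0.00395), and the activating deiodinase Dio2 (0.29) was not called. G6pc, an enzyme of glucose release, fell by 2.26 (SE 0.07, adjusted p = 3.01e-05) and passed without both in-between arrays (adjusted p = 0.0068). The call of Thrsp did not hold without non-GD replicate 3 or GD replicate 1 or 2, or with the slide as a block (adjusted p = 0.0516).

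The largest rise by the naming rule was that of Fabp4, a fatty acid carrier of fat cells that macrophages and endothelium also express. It read 1.38, -1.63 and 0.57 against 5.50, 4.46 and 2.11 (difference 3.91, SE 1.09, adjusted p = 0.0341), and its call was lost without non-GD replicate 2 or 3 or GD replicate 1 or 2 (adjusted p up to 0.11), or with the slide as a block (difference 5.39, adjusted p = 0.0552). Of the 8 fat markers, 4 were above background on all 6 arrays. Cidec, a lipid droplet protein, rose from -4.42, -5.08 and -4.63 to -1.84, -2.55 and -2.95 (difference 2.26, SE 0.31, adjusted p = 0.00334), but differed by 0.69 under normexp and was not called (adjusted p = 0.0582). Pck1 (1.95, adjusted p = 0.0762) and Retn (1.13, adjusted p = 0.177) did not pass. The summed level of the 4 ran from -0.62 to 1.66 without disease and from 2.27 to 5.58 with it, and all 4 had the order of the diseased arrays seen for Rn28s1. The fat marker Plin1 was above background on all diseased arrays and on none without disease, at least 2.93-fold higher. Their part in the other results was not tested.

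The remaining large rises and the tightest ones were of varied function. Ptgis, the prostacyclin synthase, rose from -0.29, -1.48 and -0.75 to 2.11, 1.95 and 1.85 (difference 2.81, SE 0.29, adjusted p = 0.00166). Gatm, the first enzyme of creatine synthesis, had the smallest p of the rises named by p, at -2.97, -2.95 and -2.97 against -1.32, -1.36 and -1.50 (difference 1.57, SE 0.08, adjusted p = 8.39e-05). Fmr1, an RNA-binding regulator of translation, rose by 1.43 (SE 0.08), Tmem45a by 1.36 (SE 0.07) and Tmed7, a cargo receptor of the early secretory pathway, by 1.79 (SE 0.10). These 4 genes passed without both in-between arrays, at adjusted p of 0.022, 0.027, 0.025 and 0.019. Under normexp the difference of Tmem45a was 0.02 (adjusted p = 0.933), that of Tmed7 was 0.81 and that of Gatm was 0.96.

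The named falls differed in shape. The 12 largest by the naming rule, among them the calcitonin receptor Calcr, the collagenase Mmp13, the mitochondrial transcription factor Tefm and the olfactory receptors Olfr984 and Olfr819, fell by 3.87 to 4.17 with SE of 0.47 to 0.55. Prss32, a serine protease, had the largest, from 1.11, 2.63 and 1.96 to -1.45, -2.39 and -2.97 (difference -4.17, SE 0.51, adjusted p = 0.0026). In all 12 genes replicate 2 was highest and replicate 1 lowest without disease, and replicate 1 was highest and replicate 3 lowest with it. By the numbers of the authors' best-correlated deposited values, this order is replicate 1, 2 and 3 in both groups. Without disease it is also the order of positions 1, 2 and 3 on the shared slide. With disease it runs from GD replicate 1, at position 4 there, to replicates 2 and 3 at positions 1 and 2 of the other slide. The control spot a107, named for the viral gene E1A and not for a mouse gene, had the same order, at 4.72, 5.84 and 5.34 against 2.51, 1.69 and 1.0. That order in both groups was seen for 64.2% of the 1161 genes that fell by more than 2, for 37.3% of the 806 that fell by 1 to 2, for 19% of all genes and for 6.67% of the 30 genes that rose by more than 2. Of the 152 genes with several probes among the 1161, 50.7% had all probes in 1 direction, against 60.6% of all genes with several probes and 81.2% of those that rose by 1 to 2. Other E1A control spots did not all move alike. Spots a104 and a97 differed by -3.6 and -3.5 with the same order of arrays, though most of their spots on the GD arrays were not above background. Spots a20, a22 and 3 differed by 0.27, -0.28 and -0.45. Whether an E1A transcript was added to these samples is not given. The part of the control spots and of array position in these falls was not tested.

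The 6 falls named for the smallest p were nearly flat within each group, which that choice favours. Olfr123, an olfactory receptor, read -0.03, -0.09 and -0.02 against -3.50, -3.38 and -3.45 (difference -3.40, SE 0.07, adjusted p = 2.93e-05). Mcpt2, a mast cell protease, read 0.29, 0.30 and 0.33 against -3.26, -3.16 and -3.39 (difference -3.58, SE 0.08), and Pak3, a kinase best known from neurons, 0.03, 0.05 and 0.09 against -3.54, -3.53 and -3.78 (difference -3.67, SE 0.09). The transcription factor gene Rfx8, the hair cell gene Lhfpl5 and Chm, a factor for lipid tagging of Rab proteins, had differences of -3.54, -4.10 and -2.49. All 6 passed without both in-between arrays (adjusted p = 0.0052) and within the shared slide (adjusted p = 0.0057). Genes of the sensory receptor families, whose expression is known mainly from sensory neurons, were above background on all 6 arrays for 338 of 1340 on the array, of which 50 rose and 77 fell. Of 8 pancreas markers tested 2 fell and 1 rose. The insulin gene Ins2 went from 0.82, 0.90 and 0.89 to -0.58, -0.83 and -0.79 and the lipase gene Pnlip from -0.70, -1.40 and -0.86 to -4.04, -4.11 and -4.52, while Prss1 (0.22), Cela1 (-0.19) and Ins1 (-0.09) were not called.

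**Figure D5:**
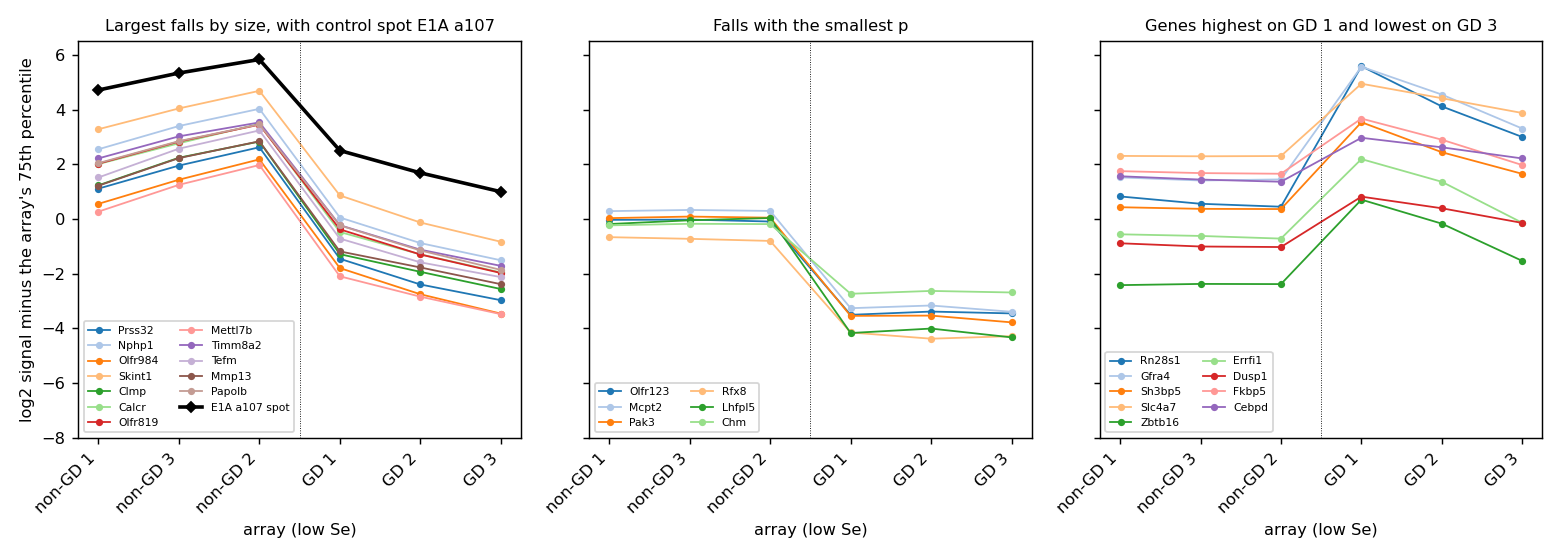
Levels (vertical axis, log2 scale as defined above) on the 6 arrays, ordered along the horizontal axis as low Se non-GD 1, 3, 2 and low Se GD 1, 2, 3, for the 12 largest falls with the E1A control spot a107 in black (left), the 6 falls with the smallest p (middle) and 9 genes highest on GD replicate 1 (right). The left panel runs parallel to the control spot, from 4.72 to 5.84 and then from 2.51 to 1.0, the middle panel is nearly flat within each group, and the right panel is flat without disease and spread out with it, highest on GD replicate 1.

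Genes above background in 1 group alone extend both ends. On all diseased arrays and none without disease there were 344, of which 17 were at least 2-fold higher. Each bound divides the brighter group's mean by a floor for the dimmer group. On each array the floor is the dimmest signal still well above background, or the probe's own signal where that is higher, and the floors are averaged. On GD replicates 2 and 3, 81.7% and 80.2% of spots were well above background, with dimmest such signals of -6.50 and -6.47. On GD replicate 1 and the non-GD arrays the shares were 72.6% to 75.4% and these signals -5.68 to -5.40. The part of this difference in the counts and bounds here was not tested. Cyp2f2, a cytochrome that is abundant in airway club cells, was at least 9.35-fold higher (adjusted p = 0.00771 in the fit without a filter on dim probes). Its diseased arrays read -0.91, -1.93 and -3.99, again highest on replicate 1 and lowest on replicate 3. The DNA polymerase Polh was at least 2.71-fold and the transcription factor Yy2 at least 2.55-fold higher, and Gpr20 at least 2.60-fold, though Gpr20 did not pass (adjusted p = 0.24). On all arrays without disease and none with it there were 106 genes, each at least 2-fold lower in disease. The 5 with the largest bound, Tmem121b, Ssxb6, Glra1, Olfr1418 and Itgb6, were at least 10.5-fold to 11.5-fold lower, and each was highest on non-GD replicate 2 and lowest on replicate 1.

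Further lists are given by their counts. Rises and falls numbered 8 and 4 of 22 for immediate early genes (median 0.16), 7 and 3 of 22 for the amino acid response (0.34), 8 and 5 of 30 for p53 targets and apoptosis (0.17), and 5 and 4 of 31 for hypoxia and glycolysis (0.10). They numbered 6 and 2 of 34 for the proteasome (0.09), 3 and 2 of 23 for cholesterol synthesis (0.05), 3 and 2 of 27 for heat shock proteins (-0.06, or 0.03 under quantile normalization), and 3 and 3 of 18 for the circadian clock (-0.02). Chac1, an enzyme of glutathione breakdown in the amino acid response, rose by 1.97 (1.31 with the slide as a block, 0.84 under normexp), and the small heat shock protein Hspb1 by 1.58. Among markers of other cells, rises and falls were 4 and 1 of 7 for dendritic cells, 1 and 2 of 7 for neutrophils, 3 and 0 of 6 for megakaryocytes and platelets (median 0.48), 0 and 0 of 7 for erythroid cells (0.73, or 0.26 without non-GD replicate 2), and 0 and 0 of 8 for splenic stroma. Liver and stomach markers, of which 2 and 3 were tested, gave no call.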

How the data were processed

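The deposited scanner files hold, per the file headers, Agilent Feature Extraction 11.0.1.1 intensity values from a probe design annotated on mm9; the background-corrected processed signal was used. The deposited table of the authors holds log2 values; the sources used here do not give their normalization. It served as an alternative only. For 22476 of 32451 genes at least 1 probe was well above background on all 6 arrays, and the brightest of these was used. Control and outlier spots were left out, and none of the array probes was saturated. Signals were scaled to each array's 75th percentile on the log2 scale and the groups of 3 arrays were compared with limma 3.58.1 (R 4.3.3), with adjustment over all genes tested and a threshold of 0.05. On simulated data with 200 changed genes, limma called 0.56 of those changed by 1 and 0.88 of those changed by 2 on the log2 scale, with 6 false calls. The simulated noise was drawn independently for each gene and array, without the in-between arrays seen here. The 6 false calls therefore do not give an error rate for the real arrays. The number of arrays limits the precision.

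Genes named are, among annotated genes that passed with groups that do not overlap and all probes in 1 direction, the 12 largest changes each way at or above the median level and the 6 smallest p-values each way; members of the lists; and the 5 largest bounds each way for genes above background in 1 group alone. Predicted genes were left out. The members and lists were chosen with earlier results of these data known. Alternatives covered background correction, scaling, the filter on dim probes, outlier spots, the choice of probe, the variance trend, slide and replicate blocks, a fit of all 9 arrays and leaving out arrays. The files hold no mean signal, so normexp used median spot and background signals. For the non-GD columns of the deposited table, the replicate numbers did not match the best-correlated scanner file (Spearman's rho of 0.997 to 0.998 with another array of the group, 0.980 to 0.987 with their own). This does not touch group means, but it bears on the replicate block and on the order of the non-GD arrays. Python 3.11.15, pandas 2.3.3 and matplotlib 3.10.9 were used for counts, sequences and plots. Some members of the lists are not reported here by name.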

Additional observations from a re-analysis of the deposited data

Results flagged for a closer look

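Control spots carry no mouse gene and were not among the genes tested, though the array order of E1A a107 was set beside that of genes above. Of the control spots above background in most of their spots on each low Se GD array, 6 read higher there than on any low Se non-GD array. The measured signals differed by 0.69 on the log2 scale for ERCC-00062_278 and by 0.212 for GE_BrightCorner, which were above background on all 6 arrays. They differed by 1.24 for ETG05_66023, 0.619 for DCP_20_7, 0.545 for DCP_20_1 and 0.537 for DCP_20_9, which on 1 or more of the low Se non-GD arrays were not above background in most of their spots, so that these 4 values are not differences between measured levels. Among spots that read lower and were above background on all 6 arrays, ETG10_13482 differed by -3.73 and E1A a107 by -3.57. Their part in the results for genes was not tested.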

How the results depend on the processing

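Against 4591 genes higher and 4099 lower, the counts were 2034 to 4849 and 2644 to 4682 when 1 array was left out, and 36 and 427 without both in-between arrays. The added ways of leaving out 1 array per group, chosen after the data were seen, gave 5759 and 5008 at most, with 1413 and 2245 without non-GD 1 and GD 2, 796 and 1906 without non-GD 2 and GD 2, 2662 and 2706 without non-GD 2 and GD 3, 1492 and 2537 without non-GD 3 and GD 1, and 704 and 1420 without non-GD 3 and GD 3. With the slide as a block they were 2984 and 2718, and on slide 1 alone 1195 and 997. By the replicate numbers used here, deviations from group means correlated at -0.34, 0.001 and 0.03 between same-numbered arrays of the groups. By the numbers of the authors' best-correlated deposited values, the correlations were 0.35, 0.07 and 0.40. Whether the samples were paired is not settled by these values. With the numbers used here, the replicate block gave 2891 and 3167. Beyond the smaller number of arrays where some were left out, the cause was not tested.

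Background correction and scaling moved the balance of calls. Of all genes called, 52.8% were higher, against 41.9% with normexp and 63.8% with scaling to the median, where the median of all genes was -0.08 and 0.13 in place of 0.06. Among 141 called genes named here, 2 turned sign, Dtx3l to -0.35 with the mean of its probes and Pax8 to -0.20 with normexp. Without both in-between arrays 24 of the 141 kept their call, on slide 1 alone 74, and 140 did so with quantile normalization as with the deposited values. Genes not well above background on all 6 arrays, 9975 in number, had no test.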
